A study of Mus musculus with 6 samples.

Results

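The 9 genes described here are the VEGF receptors *Kdr*, *Flt1*, and *Flt4*, the neuropilins *Nrp1* and *Nrp2*, and the ligands *Vegfa*, *Vegfb*, *Vegfc*, and *Pgf*, out of 54232 genes in the deposited RNA-seq files. The family was chosen by the counts of *Kdr*, which differed between WT and *Ifnar1*-/- monocytes, so the values of *Kdr* in that comparison are given as a description, without a test. The other 8 genes were included because they belong to the family. Of the 9 genes, 7 were among the 11254 genes with enough counts to be tested, and *Vegfc* and *Pgf* were not.

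Monocytes were sorted from the CNS of mice with EAE, the model of multiple sclerosis in which mice are immunized with a myelin antigen. Irradiated GFP+ recipient mice had received a 1:1 mixture of bone marrow (BM) from CD45.1 donors (WT) and CD45.2 donors (*Ifnar1*-/-), were immunized 6 to 7 weeks later, and were injected daily with rIFN-β (30000 IU). At disease peak, GFP- CD45+CD11b+Ly6Chi Ly6G- cells of both genotypes were sorted, giving 3 WT and 3 *Ifnar1*-/- libraries. *Ifnar1* encodes a chain of the receptor for all type I IFNs, so the comparison was between monocytes that could and could not respond to these IFNs in treated hosts. Every library came from rIFN-β-treated mice, the *Ifnar1* knockout was present in all cells of its donor, and receptor genotype and donor strain (CD45.1 or CD45.2) cannot be told apart. Both genotypes developed in the same irradiated hosts, 3 recipients per the study's methods, whose own cells were GFP+ and were gated out. WT and *Ifnar1*-/- libraries can therefore share mice, but the labels do not say which libraries do, nor give the age of the mice. The tests treat the libraries of both groups as independent, and p-values measure only the spread between them.

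VEGF ligands are secreted dimers that act through receptor tyrosine kinases on the cell surface. VEGF-A binds VEGFR1 (*Flt1*) and VEGFR2 (*Kdr*), VEGF-B and PlGF (*Pgf*) bind VEGFR1, and VEGF-C binds mainly VEGFR3 (*Flt4*), the receptor of lymphatic vessels. VEGFR2 is the main signaling receptor of blood vessel endothelium, whereas VEGFR1 is also known on monocytes, in which it mediates migration toward VEGF-A and PlGF. Neuropilins are co-receptors that bind VEGFs and, with plexins, the class 3 semaphorins.

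Totals ranged from 4531782 to 7321380 expected counts per library, and a count of 3 corresponded to between 0.410 and 0.662 CPM. WT library 1 was the deepest, and a single 7SL RNA gene, *Rn7s2*, took 278102 TPM in it, which lowers the TPM of every other gene in that library. The targeted gene *Ifnar1* lay between 111 and 153 normalized CPM in WT and between 102 and 110 in *Ifnar1*-/- libraries, and its log2 fold change of 0.28 (SE 0.15) did not pass the edgeR threshold (adjusted p = 0.360). The knockout allele is not described in the sources used here, and a gene-level count cannot show a change in only a part of a gene. *Ifnar1* therefore does not check the labels. Monocyte markers were abundant in every library: 8 of 8 passed the expression filter, and their summed level was between 8413 and 10221 normalized CPM in WT and between 8870 and 10198 in *Ifnar1*-/- libraries. *Ly6c2*, which encodes the Ly6C antigen of the sort gate, was called higher in WT monocytes, with 640 to 788 normalized CPM against 177 to 337. *Ccr2* stood the other way, with 587 to 694 in WT against 794 to 1269. Its log2 fold change was -0.62 (SE 0.20) and was not called (edgeR adjusted p = 0.143). Of the 8 markers, 5 had a positive log2 fold change, so similar sums do not mean that single markers were alike.

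*Kdr* RNA was scarce in *Ifnar1*-/- monocytes and higher in WT monocytes, and *Flt4*, at a lower level still, stood in the same direction without passing the test. *Flt1* supplied most of the receptor RNA in both groups. Levels of *Nrp1* and *Nrp2* lay within the same range in both groups. Among ligands *Vegfa* was the only abundant RNA, and it varied more between libraries of a group than between the groups.

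The promoter sequences of *Kdr*, the gene behind the choice of the family, and of *Vegfa*, its most abundant ligand, are shown over the 250 bases before the RefSeq transcription start, written 5′ to 3′ on the gene's own strand. The *Kdr* sequence is chr5:75978456-75978705 and the *Vegfa* sequence is chr17:46032378-46032627, both on the minus strand of GRCm38.p6. Capitals mark a match to the interferon-stimulated response element (ISRE), searched on both strands as TTTC, any 2 bases, and TTTC again.
Kdr: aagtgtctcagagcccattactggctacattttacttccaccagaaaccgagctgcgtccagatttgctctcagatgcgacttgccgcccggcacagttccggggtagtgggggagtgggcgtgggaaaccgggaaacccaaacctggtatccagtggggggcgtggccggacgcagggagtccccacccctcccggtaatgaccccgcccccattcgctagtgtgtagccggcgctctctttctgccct
Vegfa: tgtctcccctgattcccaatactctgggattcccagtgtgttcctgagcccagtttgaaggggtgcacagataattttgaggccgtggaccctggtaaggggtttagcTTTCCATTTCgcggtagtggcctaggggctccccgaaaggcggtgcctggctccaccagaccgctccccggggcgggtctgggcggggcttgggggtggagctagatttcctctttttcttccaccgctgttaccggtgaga
The *Kdr* window held no ISRE match, and it also held no match to the gamma-activated sequence searched as TTCNNNGAA or to the hypoxia response core ACGTG. The *Vegfa* window held 1 ISRE match, 142 bases before the start. Of all 32851 promoter windows of this length, 2.98% held the ISRE letters, 7.02% the TTCNNNGAA letters, and 16.6% the ACGTG letters. Of the remaining windows of the 9 genes, only a second *Vegfa* start had a match, 1 ACGTG. A match describes letters only, and says nothing of binding.

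*Kdr* (ENSMUSG00000062960.10, chromosome 5, 75932827 to 75978458, minus strand) encodes VEGFR2. WT libraries 1, 2, and 3 had 147, 33, and 31 expected counts, and *Ifnar1*-/- libraries 1, 2, and 3 had 8, 11, and 5. After normalization these were 20.9, 7.01, and 6.12 CPM in WT, against 1.22, 1.86, and 0.919 CPM in *Ifnar1*-/- libraries. The lowest WT value exceeded the highest *Ifnar1*-/- value, and WT library 1 stood above the other WT libraries. WT monocytes averaged 11.4 ± 8.30 normalized CPM (SD, n = 3), and *Ifnar1*-/- monocytes 1.34 ± 0.482 (SD, n = 3). The fitted log2 fold change was 3.09 (SE 0.54), which is an 8.54-fold higher level in WT. A log2 fold change at least as high was fitted for 0.329% of all tested genes. Without WT library 1 the log2 fold change was 2.28, or 4.86-fold. The level of *Kdr* was low in both groups, and its *Ifnar1*-/- values rest on 24 counts in all 3 libraries together.

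*Kdr* was the only 1 of the 9 genes that edgeR called (1.5-fold or more, with an adjusted p not above 0.05), against a background of 2.13% of all tested genes called in either direction and 1.67% called higher in WT. Since *Kdr* chose the family, nothing is read from this count. For *Kdr* and *Flt4* the WT values all exceeded the *Ifnar1*-/- values, which held for 11.1% of all tested genes, and 23.4% were free of overlap in 1 direction or the other. Fold changes at least as high as that of *Flt4* were fitted for 0.800% of tested genes, and at least as high as that of *Flt1* for 3.54%. *Flt4* passed the expression filter only through its WT libraries, the group in which it was higher. Its place among the tested genes is therefore a description, and nothing is read from it. The summed level of the 3 receptors was between 93.0 and 197 normalized CPM in WT and between 56.5 and 92.3 in *Ifnar1*-/- libraries, most of it *Flt1*.

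*Flt1* (ENSMUSG00000029648.13, chromosome 5, 147561604 to 147726011, minus strand) encodes VEGFR1, which binds VEGF-A tightly and signals weakly in endothelium. In WT libraries 1, 2, and 3 its level was 174, 104, and 84.9 normalized CPM, and in *Ifnar1*-/- libraries 1, 2, and 3 it was 55.6, 89.6, and 54.8. WT library 3 lay below *Ifnar1*-/- library 2, so the groups overlapped. The log2 fold change was 0.86 (SE 0.28) and did not pass the test (edgeR quasi-likelihood adjusted p = 0.148, two-sided exact permutation p = 0.2). DESeq2 placed the same change, 0.88, past the threshold (adjusted p = 0.0464), and so did edgeR without the filter on low counts (adjusted p = 6.7e-05), so the call of *Flt1* depended on the tool and the filter. Over all edgeR, DESeq2, and limma alternatives its adjusted p ranged from 6.7e-05 to 0.485. Without WT library 1 the log2 fold change was 0.51 (adjusted p = 0.369).

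*Flt4* (ENSMUSG00000020357.3, chromosome 11, 49609263 to 49652739, plus strand) encodes VEGFR3. It had 17, 13, and 10 expected counts in WT libraries 1, 2, and 3, against 2, 5, and 4 in *Ifnar1*-/- libraries 1, 2, and 3. In normalized CPM these were 2.42, 2.76, and 1.97 in WT, and 0.305, 0.847, and 0.736 in *Ifnar1*-/- libraries. The groups did not overlap, at counts close to the detection floor in the *Ifnar1*-/- libraries. Only in WT did the counts reach 10, the minimum of the expression filter. The log2 fold change of 1.91 (SE 0.50) did not pass the threshold (edgeR adjusted p = 0.0857). The two-sided exact permutation p was 0.1, and 3 libraries against 3 cannot give a lower one.

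**Figure D1:**
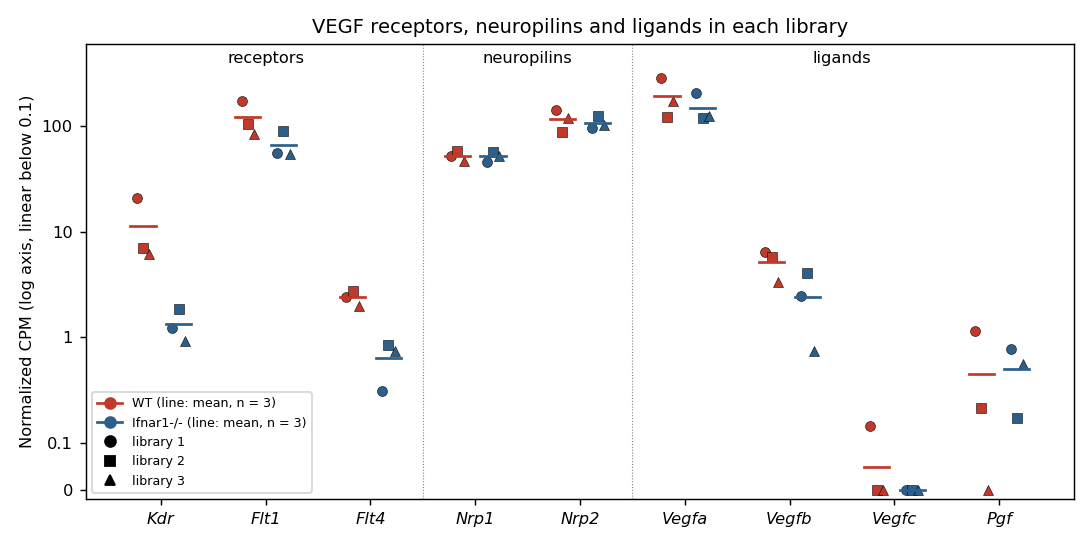
Normalized CPM (log axis, linear below 0.1) of the 9 genes in each of 3 WT (red) and 3 *Ifnar1*-/- (blue) libraries, with horizontal lines at the group means and symbols for library numbers. Only *Kdr* and *Flt4* have every WT library above every *Ifnar1*-/- library, while *Vegfc* lies at 0 in 5 of the 6 libraries.

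*Nrp1* (ENSMUSG00000025810.9, chromosome 8, 128358604 to 128503363) encodes neuropilin-1, a co-receptor of VEGFR2 that is also known on human pDCs. Its level was 52.2, 58.2, and 47.2 normalized CPM in the WT libraries, against 46.0, 56.9, and 52.2 without the receptor. The values of both groups lay in the same range, and the log2 fold change was 0.02 (SE 0.15, edgeR adjusted p = 0.957, exact permutation p = 0.8). *Nrp2* (ENSMUSG00000025969.15, chromosome 1, 62703285 to 62818695), the co-receptor that binds VEGF-C and semaphorin 3F, measured 143, 87.8, and 118 normalized CPM in the WT libraries, against 95.7, 124, and 103 in the *Ifnar1*-/- ones. WT libraries held both the lowest and the highest value of *Nrp2*, and the log2 fold change was 0.11 (SE 0.19, edgeR adjusted p = 0.801, exact permutation p = 0.8). The signs of both neuropilin changes flipped under a correction for gene length, to -0.0724 for *Nrp1* and -0.0014 for *Nrp2*, so neither gene has a direction. *Nrp2* contains the antisense gene *Gm29083* and, on its own strand, *Gm37121*, and the strand setting of the read counting is not given in the sources used here.

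*Vegfa* (ENSMUSG00000023951.17, chromosome 17, 46016993 to 46032369) encodes the ligand of VEGFR1 and VEGFR2. Its level was 288, 121, and 175 normalized CPM in WT libraries 1, 2, and 3, against 205, 118, and 126 in *Ifnar1*-/- libraries 1, 2, and 3. Library 1 was the highest in each group, and the groups overlapped. The log2 fold change of 0.38 (SE 0.30, edgeR adjusted p = 0.557, exact permutation p = 0.6) turned to -0.0115 without WT library 1. *Vegfb* (ENSMUSG00000024962.13, chromosome 19, 6982473 to 6987651), whose product binds VEGFR1 and neuropilin-1, had 45, 27, and 17 expected counts in WT, against 16, 24, and 4 in *Ifnar1*-/- libraries. Its normalized CPM of 6.4, 5.74, and 3.36 in WT overlapped with 2.44, 4.07, and 0.736 in *Ifnar1*-/- libraries. The log2 fold change of *Vegfb* was 1.09 (SE 0.49, edgeR adjusted p = 0.284, exact permutation p = 0.2).

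*Pgf* (ENSMUSG00000004791.7, chromosome 12, 85166635 to 85177790), which encodes PlGF, had 8, 1, and 0 expected counts in WT, against 5, 1, and 3 in *Ifnar1*-/- libraries. *Vegfc* (ENSMUSG00000031520.6, chromosome 8, 54077606 to 54187096) had 1 count in WT library 1 and 0 counts in the other 5 libraries. A difference in either gene was not detectable at this depth. *Vegfd*, the remaining VEGF ligand gene, had 0 counts in all 6 libraries.

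**Figure D2:**
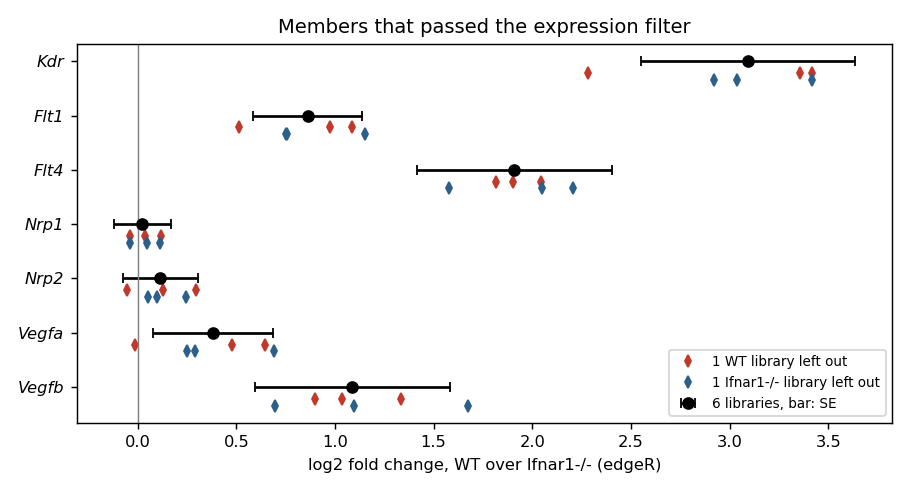
Log2 fold change (WT over *Ifnar1*-/-, edgeR) of the 7 genes that passed the expression filter: black points with bars of 1 SE for all 6 libraries, and diamonds for fits that leave out 1 WT (red) or 1 *Ifnar1*-/- (blue) library. *Kdr* moves from 3.09 to 2.28 without WT library 1, and *Vegfa* crosses 0 without the same library.

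Levels of different genes were compared per length, with the deposited TPM. In WT monocytes the order by mean TPM was *Vegfa* (73.4 to 128 TPM over the 3 libraries), *Flt1* (21.7 to 33.7 TPM), *Nrp2* (16.2 to 21.5 TPM), *Nrp1* (10.98 to 18.04 TPM), *Vegfb* (3.90 to 5.71 TPM), *Kdr* (1.09 to 2.71 TPM), *Flt4* (0.320 to 0.550 TPM), *Pgf*, and *Vegfc*. Neighbors in this order had separate ranges except *Nrp2* with *Nrp1*, *Flt4* with *Pgf*, and *Pgf* with *Vegfc*. In *Ifnar1*-/- monocytes *Vegfa* again came first, with 60.1 to 97.9 TPM. *Nrp2* (15.2 to 22.8 TPM), *Flt1* (12.5 to 25.4 TPM), and *Nrp1* (11.8 to 17 TPM) followed and overlapped one another, above *Vegfb* (0.61 to 4.03 TPM). *Kdr*, with 0.140 to 0.330 TPM, overlapped with *Pgf* (0.16 to 0.5 TPM) and *Flt4* (0.0400 to 0.190 TPM). *Kdr* stood apart from the lowest group of genes in WT libraries and within it in *Ifnar1*-/- libraries. This describes the *Kdr* values that chose the family, which rest on 24 counts in all *Ifnar1*-/- libraries together.

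Shares within a library do not depend on how that library was scaled. Of the summed TPM of the 3 receptors, *Kdr* took 8.17%, 3.71%, and 4.70% in WT libraries 1, 2, and 3, against 1.40%, 1.27%, and 1.10% in *Ifnar1*-/- libraries 1, 2, and 3. *Flt1* took 90.9%, 94.7%, and 93.6% in WT and 98.3%, 98.0%, and 98.0% in *Ifnar1*-/- libraries, so it was the main receptor RNA in each. Per molecule of *Kdr* there were between 11.1 and 25.6 of *Flt1* in WT and between 70.1 and 89.2 in *Ifnar1*-/- libraries, as TPM ratios. These shares use the *Kdr* values that chose the family. *Vegfa* took between 92.5% and 98.3% of the summed TPM of the 4 ligands over all 6 libraries, and the ranges of the 2 groups overlapped.

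**Figure D3:**
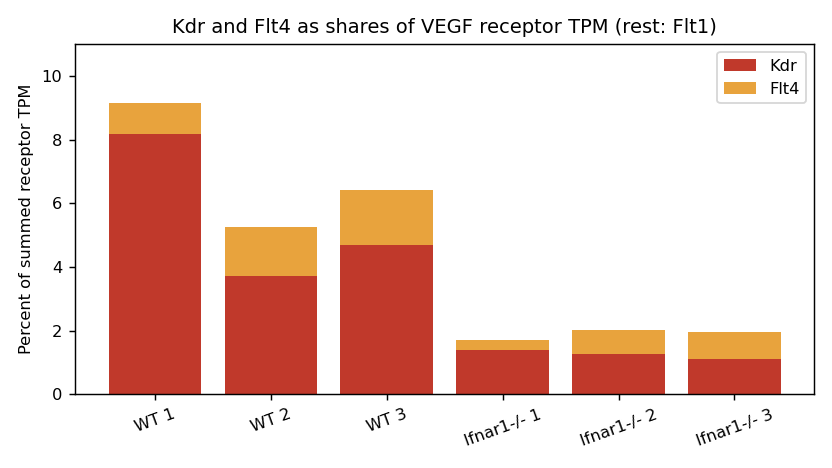
*Kdr* (red) and *Flt4* (orange) as a percent of the summed TPM of *Kdr*, *Flt1*, and *Flt4* in each library, on an axis from 0, with *Flt1* as the remainder. *Kdr* makes up 3.71% to 8.17% in WT libraries and 1.10% to 1.40% in *Ifnar1*-/- libraries.

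The deposited files also give the gene length that RSEM averaged over the transcripts it assigned reads to. For *Flt1* this length was between 3367 and 4274 bases over the 6 libraries, below the 6292 bases of the shorter of its 2 protein-coding GENCODE transcripts, so a share of *Flt1* TPM was assigned to shorter transcripts in every library. Values of *Flt1* therefore cannot be read as the full-length receptor, and gene-level values do not tell its soluble from its membrane form. For *Kdr* the length was 5924 bases, that of its 1 protein-coding transcript, in all *Ifnar1*-/- libraries and in WT library 3, and 5661 and 5637 bases in WT libraries 1 and 2.

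The 5 genes whose log2 normalized CPM followed *Kdr* most closely over the 6 libraries were *Tmem184b*, *Prr13*, *Pogz*, *Foxo3*, and *Maf*, with Pearson's r from 0.992 to 0.997. *Foxo3* and *Maf* encode transcription factors. Each of the 5 genes was highest in WT library 1 and lower in every *Ifnar1*-/- library than in any WT library. Within the family, r with *Kdr* was 0.933 for *Flt1*, 0.878 for *Flt4*, 0.795 for *Vegfb*, 0.559 for *Vegfa*, 0.482 for *Nrp2*, and 0.163 for *Nrp1*. These correlations use the *Kdr* values that chose the family, and describe 6 libraries in 2 groups that share their normalization. In likeness to *Kdr* among 11253 genes, *Flt1* ranked 292, *Flt4* 706, *Vegfb* 1317, *Vegfa* 2619, *Nrp2* 3003, and *Nrp1* 4519.

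Endothelial cells are the main cells with *Kdr* and *Flt4* in tissue, so endothelial markers were examined beside them. The 17 markers summed to between 32.3 and 59.8 normalized CPM in WT and between 20.8 and 25.6 in *Ifnar1*-/- libraries, higher in each WT library. In bulk samples fewer cells of a type and less RNA per cell cannot be told apart. This sum came mostly from *Vwf*, *Eng*, and *Pecam1*, the 3 markers that passed the expression filter. *Vwf*, the gene of von Willebrand factor of endothelium and megakaryocytes, had 22.8, 14.5, and 16.4 normalized CPM in WT and 5.34, 7.79, and 8.09 in *Ifnar1*-/- libraries (log2 fold change 1.35, SE 0.25, edgeR adjusted p = 0.0189). *Vwf* was called in 2 of the 6 fits that left out 1 library, those without WT library 2 or 3. *Eng* and *Pecam1*, which myeloid cells also express, had adjusted p = 0.260 and 0.614 from edgeR. The other 14 markers, which are set apart here by their low counts, summed to 2.55 to 4.15 normalized CPM in WT and 1.53 to 2.75 in *Ifnar1*-/- libraries. *Sox17*, *Sox18*, and *Plvap* were at 0 in all libraries, and *Cdh5*, the gene of VE-cadherin, reached at most 1.99 normalized CPM. In WT library 1, *Kdr* had 147 counts, beside 160 of *Vwf*, 118 of *Pecam1*, 117 of *Eng*, and 14 of *Cdh5*.

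**Figure D4:**
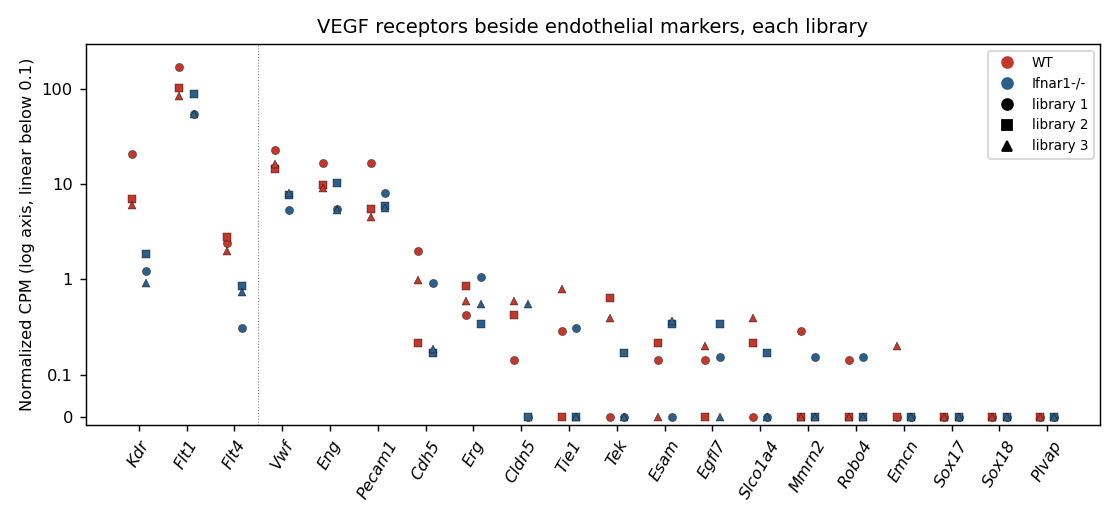
Normalized CPM (log axis, linear below 0.1) of the 3 VEGF receptors, left of the dotted line, and of 17 endothelial markers in each WT (red) and *Ifnar1*-/- (blue) library. *Cdh5* and the 13 markers to its right stay at or below 1.99, while *Flt1* lies between 54.8 and 174 and *Kdr* in WT between 6.12 and 20.9.

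The gate (GFP- CD45+CD11b+Ly6Chi Ly6G-) would remove most other cells, among them neutrophils, lymphocytes, host microglia, and mural and neural cells, and their markers were examined for what passed it. T cell markers summed to between 21.5 and 52.9 normalized CPM in WT and between 7.63 and 21.99 in *Ifnar1*-/- libraries. Of 9 T cell markers 7 were tested, 0 were called by edgeR, and 6 had an unadjusted p under 0.05, all higher in WT. Over all tested genes, edgeR called 2.13%, and 17.8% had an unadjusted p under 0.05. The part of *Vwf*, *Eng*, *Pecam1*, and the T cell markers in the *Kdr* and *Flt4* values was not tested. B cell markers summed to at most 1.71 normalized CPM and were higher in each WT library, with *Pax5* at 0. Neutrophil markers (358 to 2387 normalized CPM in WT and 911 to 2787 in *Ifnar1*-/-), mural and fibroblast markers (2.55 to 3.56 and 1.84 to 4.07), microglia markers (328 to 391 and 380 to 438), and neural and glial markers (46.3 to 65.9 and 46.6 to 51.9) overlapped between groups. Markers of pDCs overlapped narrowly (343 to 426 and 291 to 343), and among them *Bst2*, also an IFN-induced gene, was called, with 48.0 to 89.1 against 10.7 to 22.7 normalized CPM.

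Plexins pair with neuropilins in semaphorin receptors. Of 12 class 3 semaphorin and plexin genes, 2 had enough counts to be tested. edgeR called 0 of them, against 2.13% of all tested genes. Both had an unadjusted p under 0.05, as did 17.8% of all tested genes. These were the plexin genes *Plxnd1* and *Plxna1*. *Plxnd1*, a receptor of semaphorin 3E, had 254, 101, and 144 normalized CPM in WT and 41.4, 97.3, and 76.3 in *Ifnar1*-/- libraries (log2 fold change 1.22, SE 0.35, adjusted p = 0.118 from edgeR). *Plxna1*, which pairs with neuropilins for semaphorin 3A, had 241, 179, and 184 normalized CPM in WT and 74.5, 158, and 119 in *Ifnar1*-/- libraries (log2 fold change 0.78, SE 0.25, adjusted p = 0.144 from edgeR). For both plexin genes the WT values all exceeded the *Ifnar1*-/- values, which held for 11.1% of all tested genes. DESeq2 called *Plxna1* (adjusted p = 0.0414) and limma-voom called neither. No class 3 semaphorin gene had enough counts to be tested, and *Sema3e* had no count in any library.

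The signaling list holds genes that act downstream of the receptors, and also the ligand gene *Vegfd*. Of 38 genes of VEGF receptor signaling, 33 were tested. edgeR and limma-voom called 0 of these, and edgeR called 2.13% of all tested genes. Of the 33 genes, 3 had an unadjusted p under 0.05, against 17.8% of all tested genes. The median log2 fold change of the 33 genes was 0.24, beside -0.01 for all 11254 tested genes. The most abundant were *Prkcd*, a protein kinase C gene, with a log2 fold change of 0.28 (SE 0.21), and *Cdc42*, a small GTPase gene, with -0.21 (SE 0.15). DESeq2 called 1 gene of this list, *Sh2d2a*, the adaptor TSAd that binds VEGFR2 and is also known in T cells (log2 fold change 2.12, adjusted p = 0.0453). edgeR called *Sh2d2a* when library numbers were added as a replicate block (log2 fold change 2.03, adjusted p = 0.0259), whereas DESeq2 with the block did not, and without the filter on low counts edgeR called *Sh2d2a* and *Nfatc2*. Of 17 genes of receptor trafficking and phosphatases, 11 were tested, and edgeR, DESeq2, and limma-voom called 0 of them, with 0 at an unadjusted p under 0.05 and a median log2 fold change of 0.05. *Ptpn1*, a phosphatase that acts on VEGFR2, had a log2 fold change of 0.23 (SE 0.19), and *Dab2*, an endocytic adaptor, had -0.03 (SE 0.24).

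Hypoxia is the best known inducer of *Vegfa*, so genes of the hypoxia response were examined. Of 22 hypoxia genes, 19 were tested, and edgeR, DESeq2, and limma-voom called 0 of them. Since edgeR called 2.13% of all tested genes, nothing is read from 0 calls among 19. An unadjusted p under 0.05 was found for 4, against the same 17.8%. The median log2 fold change was -0.06. *Hif1a* measured 1042, 830, and 712 normalized CPM in WT, against 1175, 839, and 757 in *Ifnar1*-/- libraries. In both groups library 1 was the highest, as for *Vegfa*, and the log2 fold change of *Hif1a* was -0.10 (SE 0.21, edgeR adjusted p = 0.850). *Ldha*, a glycolytic gene induced by hypoxia, had a log2 fold change of -0.16 (SE 0.16, edgeR adjusted p = 0.641).

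Of 21 other angiogenic factors, 8 were tested. edgeR and limma-voom called 0 of these, and edgeR called 2.13% of all tested genes. An unadjusted p under 0.05 was found for 2, against the same 17.8%. The median log2 fold change was 0.18. *Thbs1*, the gene of the angiogenesis inhibitor thrombospondin-1, was the most abundant, with 4456, 1240, and 1873 normalized CPM in WT and 2748, 993, and 1479 in *Ifnar1*-/- libraries, and library 1 was again the highest in each group. Its log2 fold change was 0.54 (SE 0.46, edgeR adjusted p = 0.588). *Anpep*, which encodes aminopeptidase N (CD13) of myeloid cells and angiogenic vessels, had 591, 350, and 363 normalized CPM in WT and 133, 323, and 204 in *Ifnar1*-/- libraries. All its WT values exceeded the *Ifnar1*-/- values, as for 11.1% of all tested genes. The log2 fold change of *Anpep* was 0.98 (SE 0.31, edgeR adjusted p = 0.142), and it was the 1 gene of this list that DESeq2 called (adjusted p = 0.0223). *Angpt1* and *Col18a1* had no count in any library.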

How the data were processed

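RNA-seq of CNS monocytes sorted from BM chimera mice was analyzed from the gene-level files of 3 WT and 3 *Ifnar1*-/- libraries, grouped by their deposited labels. The authors aligned reads to GRCm38 and estimated expression with RSEM (STAR 2.6.0c and RSEM 1.2.31 in the submitters' processing notes). The authors' expected counts are estimated and not normalized, and reads that fit several genes are divided among them. The deposited TPM are the authors' RSEM values per effective length, with 1 total for every library. The deposited effective lengths were used for an offset. The labels and the methods name different library kits. Library totals are given as the depth, and floors of 3 counts cover counting error only.

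Genes were named from GENCODE M21 (54165 of 54232 identifiers matched, versions ignored), and promoter sequences came from RefSeq (GRCm38.p6), in which all 9 genes matched. Expected counts were rounded and tested with edgeR 4.0.16 in R 4.3.3 (TMM, filterByExpr with its minimum count of 10, quasi-likelihood test, Benjamini-Hochberg adjustment over all 11254 tested genes). The SE is the log2 fold change divided by the square root of F. Genes changed by 1.5-fold or more with an adjusted p not above 0.05 were called. Library sizes in normalized CPM were multiplied by TMM factors. Exact permutation tests were two-sided, on log2(normalized CPM + 0.5). Alternatives were DESeq2 1.42.0 (the study's tool), limma 3.58.1, other normalizations, filters, and offsets, a replicate block, and leaving out each library. The test was checked on simulated counts of 11254 genes for this comparison, with 97% of 4-fold and 65% of 2-fold changes recovered and 7.43% of calls false.

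The members and lists were chosen with earlier results of these data known. Named were all 9 members, the 2 most abundant genes of each pathway list without a call, called marker genes, and the 5 genes most like *Kdr*. *Sh2d2a*, *Ccr2*, *Cdh5*, *Eng*, *Pecam1*, *Vegfd*, *Sema3e*, and the genes that alternatives called were named after their values were seen.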

Additional observations from a re-analysis of the deposited data

How the results depend on the processing

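The log2 fold change of *Kdr* kept its direction in every alternative that gave a value, from 1.56 to 3.12 across tools and settings and from 2.28 to 3.42 across fits that each left out 1 library. *Kdr* chose the family, so its calls are given as a description and not as a test. *Kdr* was no longer past the thresholds with limma-voom (2.93), without *Ifnar1*-/- library 1 (3.04), or without *Ifnar1*-/- library 3 (2.92). It was not tested when at least 10 counts were required in every library. The cause was not tested. *Flt1* passed the thresholds with DESeq2 (0.88) and with all genes left unfiltered (0.86), and *Flt1* ranged from 0.51 to 1.15 when 1 library was left out. *Flt4* (0.59 to 2.01 across tools and settings, the lowest with limma on log2(TPM + 0.5), and 1.58 to 2.20 when 1 library was left out) and *Vegfb* (0.86 to 1.30, and 0.69 to 1.67) kept their direction and stayed short of the thresholds, although DESeq2 gave no adjusted p for *Flt4*. *Nrp1* turned to -0.0724 with the length offset and -0.0731 with that offset and the replicate block, and *Nrp2* to -0.0014 with the length offset, -0.0126 with that offset and the replicate block, and -0.0082 with GC and length offsets and the replicate block. When 1 library was left out, *Nrp1* ranged from -0.0411 to 0.12, *Nrp2* from -0.0552 to 0.29, and *Vegfa* from -0.0115 to 0.69.

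The number of the 9 genes called was 2 with DESeq2, 2 without the filter, 0 with limma-voom and with at least 10 counts in every library, and from 0 to 1 when 1 library was left out. Over all genes, 188 were called higher and 52 lower in WT. These numbers were 314 and 105 with DESeq2, 610 and 262 without the filter, 111 and 14 with limma on log2(TPM + 0.5), and 111 and 13 on log2(TPM + 0.1). They ranged from 110 to 204 and from 7 to 41 when 1 library was left out. Lists with no call gained 1 semaphorin or plexin gene, 1 signaling gene, and 1 angiogenic gene with DESeq2, and 2, 2, and 3 without the filter, where 1 hypoxia gene (*Ddit4*) was also called. The signaling list had 1 call (*Sh2d2a*) with the replicate block, with the length offset and the block, with GC and length offsets and the block, 0 with the block in DESeq2, and from 0 to 1 when 1 library was left out.

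Same-numbered libraries deviated from their group means with correlations of 0.0873, 0.0265, and 0.289 across genes. WT library 1 correlated more with *Ifnar1*-/- library 2 (0.101) than with its own number. The remaining correlations between different numbers were 0.0212, -0.0517, -0.122, -0.144, and -0.204. The numbers were thus not shown to pair the libraries. With the replicate block the log2 fold change of *Kdr* was 2.98, 182 genes were called higher and 38 lower, and the number of the 9 genes called was 1. GC and length offsets were added after seeing the data, since log2 fold changes correlated across genes with GC content (Spearman's rho = 0.368) and length (rho = 0.216), and genes are not independent replicates. Depth limits *Vegfc*, *Pgf*, *Flt4*, and the *Ifnar1*-/- values of *Kdr* most.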
